A study of Mus musculus with 82 samples.

Results

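The MYC, MAX and MXD network comprised 10 of the 55401 genes counted in cultured mouse aortic vascular smooth muscle cells (aVSMC): Myc, Mycl, Max, Mxd1, Mxd3, Mxd4, Mxi1, Mnt, Mga and Mlx. They were selected by gene name, each had its own row in the count tables, and all 10 passed the filter on low counts at both time points, as did 14528 genes in all.

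MYC and its relative MYCL are basic helix-loop-helix leucine zipper transcription factors that bind DNA as dimers with MAX, at a short palindrome called the E-box, and raise transcription of genes for ribosome assembly, metabolism and cell division. MXD1, MXD3, MXD4, MXI1 and MNT also pair with MAX, occupy the same kind of site and bring the SIN3 corepressor with them, so that they oppose MYC. MGA is a large MAX partner found in a variant polycomb repressor complex, and MLX is a MAX-like protein whose partners include the glucose-sensing factor MondoA. In vascular smooth muscle, MYC is known as a growth-response gene that serum and mitogens induce.

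All cells came from aortas of C57BL/6 mice, were expanded in growth medium that held serum, insulin and EGF, and then spent 24 h in medium without these supplements, controls included. They were incubated with EGF (10 µg/L, the ligand of the EGF receptor), AngII (angiotensin II, 10 nM, the ligand of AT1R) or U46619 (1 µM, a stable thromboxane analogue that activates the thromboxane receptor TP). At 24 h there were 6 libraries in each of 7 groups, with every mouse (1 to 6) in every group: an unstimulated control, each agent alone, EGF together with AngII, EGF together with U46619, and the 3 agents together. At 48 h there were 10 control and 10 EGF libraries and 5 each of AngII, U46619, EGF+AngII and EGF+U46619, from 2 batches of 5 culture sets: U46619 was given in the EGF/U46619 batch and AngII in the EGF/AngII batch. The labels name 5 mice for these 10 sets, whereas the authors' methods give a different mouse for every replicate. The labels were used in the fit. Some sets may share an animal, and p-values then measure the spread between cultures. The cells were passaged cultures of a mixed aortic isolate, which limits them as a model of the vessel wall.

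Total counts were 16483529 to 20818809 per library at 24 h and 19936925 to 33916114 at 48 h, and levels below are FPM, read counts scaled to the effective library size (TMM) within each time point. The smooth muscle markers Acta2, Myh11, Smtn and Lmod1 were detected, whereas Tagln and Cnn1 lie among 7075 genes of 4 chromosomes that are listed at 0 in every library. The summed endothelial markers (Pecam1, Kdr, Vwf and Tie1, with Cdh5 listed at 0) differed by culture, from 4.37 to 1530 FPM among the 24 h controls. With U46619 at 24 h the summed contractile markers were at 4415 to 15175 FPM against 1248 to 5367 FPM in controls. The summed adventitial fibroblast markers were at 160.5 to 1889 against 377 to 3146 FPM, with 5 of 6 called lower beside 27.8% of all genes. The summed macrophage and leukocyte markers were at 9.79 to 52.8 against 16.7 to 110 FPM. Of the 2 of them tested, 1 was called lower (log2-fold change -1.31) and 1 was above 0 (0.63, not called). Lyz2 had a median of 35.5 FPM over all libraries and Cd68 of 2.15 FPM. The part of these markers in the results below was not tested, and in bulk RNA fewer cells of a type and less RNA per cell cannot be told apart. A single 48 h control library, of culture set 4 in the EGF/AngII batch, stood apart: its deviations correlated with its own set at a mean of -0.280 and with the treated libraries of set 2 at a mean of 0.859, and values without it are given beside the 48 h results.

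To compare the members with each other, FPM were divided by the length of each gene's merged exons. In unstimulated cells at 24 h the highest level per length was that of the repressor Mxd4, at 27.7 ± 4.04 FPM per kb (SD, n = 6), followed by Max at 23.7 ± 5.09, Mlx at 14.2 ± 1.62, Mnt at 14.0 ± 3.70 and Myc at 12.2 ± 5.46 FPM per kb. Much lower levels were found for Mxd3 (3.59 ± 2.83), Mxi1 (3.42 ± 0.189), Mga (2.08 ± 0.883), Mxd1 (1.63 ± 0.658) and Mycl (0.772 ± 0.542 FPM per kb). Max exceeded Mlx in 6 of 6 mice, but Mxd4 exceeded Max in 4 of 6, Mlx exceeded Mnt in 3 of 6 and Mnt exceeded Myc in 4 of 6, so the order among these neighbours lay within their spread. In the 48 h controls Max came highest with 22.8 FPM per kb, above Mxd4 (19.4) in 9 of 10 culture sets, and the means of Myc (13.6) and Mlx (12.1) followed. Without the library that stood apart these means were 22.6, 19.5, 13.9 and 12.3.

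**Figure D1:**
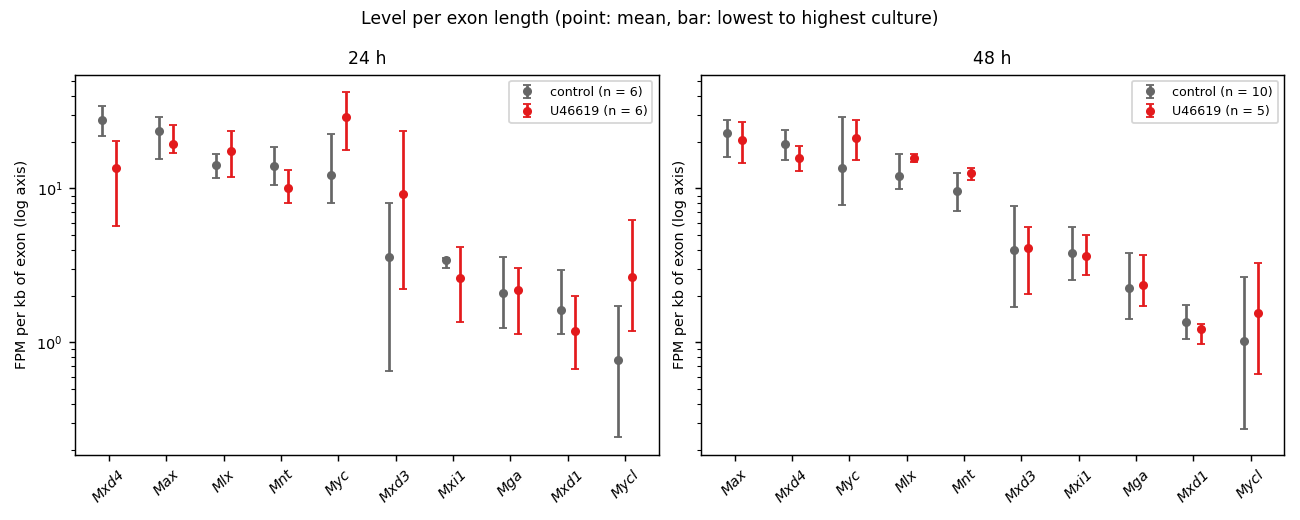
Levels of the 10 network members in FPM per kb of exon, on a log axis, in control (grey) and U46619 (red) libraries at 24 h and 48 h, with a point for the mean and a bar from the lowest to the highest culture. In controls Mxd4 (27.7) and Max (23.7) stood highest at 24 h and Mycl (0.772) lowest, and with U46619 at 24 h Myc rose to 29.1 and Mxd4 dropped to 13.6 FPM per kb.

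Promoters were available from RefSeq (GRCm38.p6) for 9 of the 10 members, all except Myc, which was therefore not searched. The 250 bases before each start were searched for the E-box CACGTG, which reads the same on both strands. It was present in 3 members, the MAX partners Mxd4 and Mnt and the MAX-like Mlx, and in 6.02% of the 32851 promoters in the table. The windows of these 3 are shown 5′ to 3′ on the gene's strand, because they hold the element that the network's own proteins bind, with the E-box in capitals. A match is a description of the sequence and not evidence of binding. They lie at chr5:34187711-34187960 on the minus strand for Mxd4, with the E-box beginning 219 bases before the start, at chr11:74830674-74830923 on the plus strand for Mnt, 123 bases before, and at chr11:101087040-101087289 on the plus strand for Mlx, 40 bases before.
Mxd4: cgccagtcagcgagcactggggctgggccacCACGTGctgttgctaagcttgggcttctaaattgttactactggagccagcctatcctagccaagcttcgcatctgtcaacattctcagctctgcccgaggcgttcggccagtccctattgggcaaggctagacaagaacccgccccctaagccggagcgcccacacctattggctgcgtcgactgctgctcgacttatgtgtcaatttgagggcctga
Mnt: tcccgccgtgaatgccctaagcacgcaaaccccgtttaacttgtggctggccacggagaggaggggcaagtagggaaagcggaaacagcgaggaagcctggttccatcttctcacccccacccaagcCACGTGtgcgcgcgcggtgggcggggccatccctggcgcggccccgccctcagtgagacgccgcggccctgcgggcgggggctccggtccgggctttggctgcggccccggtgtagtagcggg
Mlx: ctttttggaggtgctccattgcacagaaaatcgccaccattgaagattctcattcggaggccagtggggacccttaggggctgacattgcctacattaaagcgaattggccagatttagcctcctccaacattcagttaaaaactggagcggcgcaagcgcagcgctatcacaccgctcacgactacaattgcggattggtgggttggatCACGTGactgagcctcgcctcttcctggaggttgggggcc

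Incubation with U46619 for 24 h changed 6 of the 10 members: Myc and Mycl rose, while Mxd4, Mxd1, Mnt and Max fell. A gene was called differentially expressed (DEG) at a false discovery rate (FDR) under 0.05 in both edgeR and DESeq2 with at least 5 FPM in a compared group, and 27.8% of all 14528 genes met this rule in the same comparison. The median absolute log2-fold change was 0.487 over the members and 0.382 over all genes.

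Myc (chr15:61985391-61990374, plus strand, GRCm38) had 21.8, 27.4 and 61.4 FPM as the lowest, median and highest control values and 48.4, 80.0 and 115 FPM with U46619. Mouse 3, which had the highest control level, went from 61.4 to 86.4 FPM, and mouse 6 from 37.1 to 48.4 FPM, whereas mouse 1 went from 30.1 to 115 FPM. The groups overlapped, but the level was higher in 6 of 6 mice, with a log2-fold change of 1.33 ± 0.24 (SE, n = 6) and an FDR of 0.000119 in edgeR and 1.59e-06 in DESeq2. Mycl (chr4:122995652-123002485, plus strand), a close relative of Myc with the same mode of binding, was low in controls, with 0.975, 2.13 and 6.94 FPM (19 to 146 counts), and reached 4.77, 7.36 and 25.3 FPM with U46619. The lowest of these treated values came from mouse 6 and the highest from mouse 2, which had the lowest control value, and mouse 4 hardly moved, from 6.94 to 7.35 FPM. The log2-fold change of Mycl was 1.76 ± 0.48 (edgeR FDR = 0.0047, DESeq2 FDR = 0.00066).

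Among the repressors, Mxd4 (chr5:34173883-34187720, minus strand) fell most. It had 184.8, 234 and 291 FPM in controls and 48.6, 118 and 172.1 FPM with U46619, and these groups did not overlap. Mice 1 and 2 lost most, from 291 to 80.0 FPM and from 224 to 48.6 FPM, and mouse 6 least, from 242 to 172.1 FPM. The log2-fold change was -1.15 ± 0.26 (edgeR FDR = 0.000963, DESeq2 FDR = 7.46e-05). Mxd1, a repressor known from differentiating cells, had 8.03, 9.91 and 20.8 FPM in controls and 4.76, 7.94 and 14.2 FPM with U46619, was lower in 6 of 6 mice, and had a log2-fold change of -0.46 ± 0.15 (edgeR FDR = 0.0193). Mnt, the broadly expressed MYC antagonist (chr11:74830920-74845725, plus strand), had 49.0, 61.9 and 85.6 FPM in controls and 37.4, 46.4 and 60.99 FPM with U46619. Its groups overlapped and mouse 5 rose slightly, from 50.6 to 52.6 FPM, against a log2-fold change of -0.46 ± 0.18 over all mice (edgeR FDR = 0.0418).

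Mxi1 had 20.8 to 24.2 FPM in controls and 9.25 to 28.4 FPM with U46619, and its log2-fold change of -0.51 passed in DESeq2 (FDR = 0.0423) but not in edgeR (FDR = 0.0599), so it was not called. Mxd3, a repressor known from S phase of proliferating cells (chr13:55325168-55329823, minus strand), split by mouse: it rose from 3.11 to 56.4 FPM in mouse 1, from 1.54 to 10.6 FPM in mouse 2 and from 9.08 to 40.4 FPM in mouse 3, and was at 19.2 and 8.40 FPM in mouse 4, 5.11 and 5.28 FPM in mouse 5 and 13.03 and 9.94 FPM in mouse 6. Over all mice its log2-fold change was 0.79 (edgeR FDR = 0.275). In controls, mice 4, 5 and 6 had the highest summed endothelial markers, at 584, 342 and 1530 FPM, against 4.37, 4.57 and 58.9 FPM in mice 1, 2 and 3. The summed proliferation genes split by mouse as well: with U46619 they went from 238, 228 and 302 FPM to 2554, 2095 and 1318 FPM in mice 1, 2 and 3, and from 607, 436 and 665 FPM to 703, 633 and 757 FPM in mice 4, 5 and 6. The part of either in the Mxd3 values was not tested.

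Max, a shared partner of both arms, had 55.6, 84.9 and 105 FPM in controls and 61.4, 66.9 and 93.2 FPM with U46619. The levels overlapped widely, and the log2-fold change of -0.27 ± 0.11 lay at the threshold (edgeR FDR = 0.0499). The other partners were not called: Mlx had a log2-fold change of 0.28 (edgeR FDR = 0.177) and Mga of 0.09. Leaving out mouse 1, 2 or 6 in turn reduced the count from 6 to 3 by the loss of Max, Mxd1 and Mnt, and without mouse 5 it was 7.

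**Figure D2:**
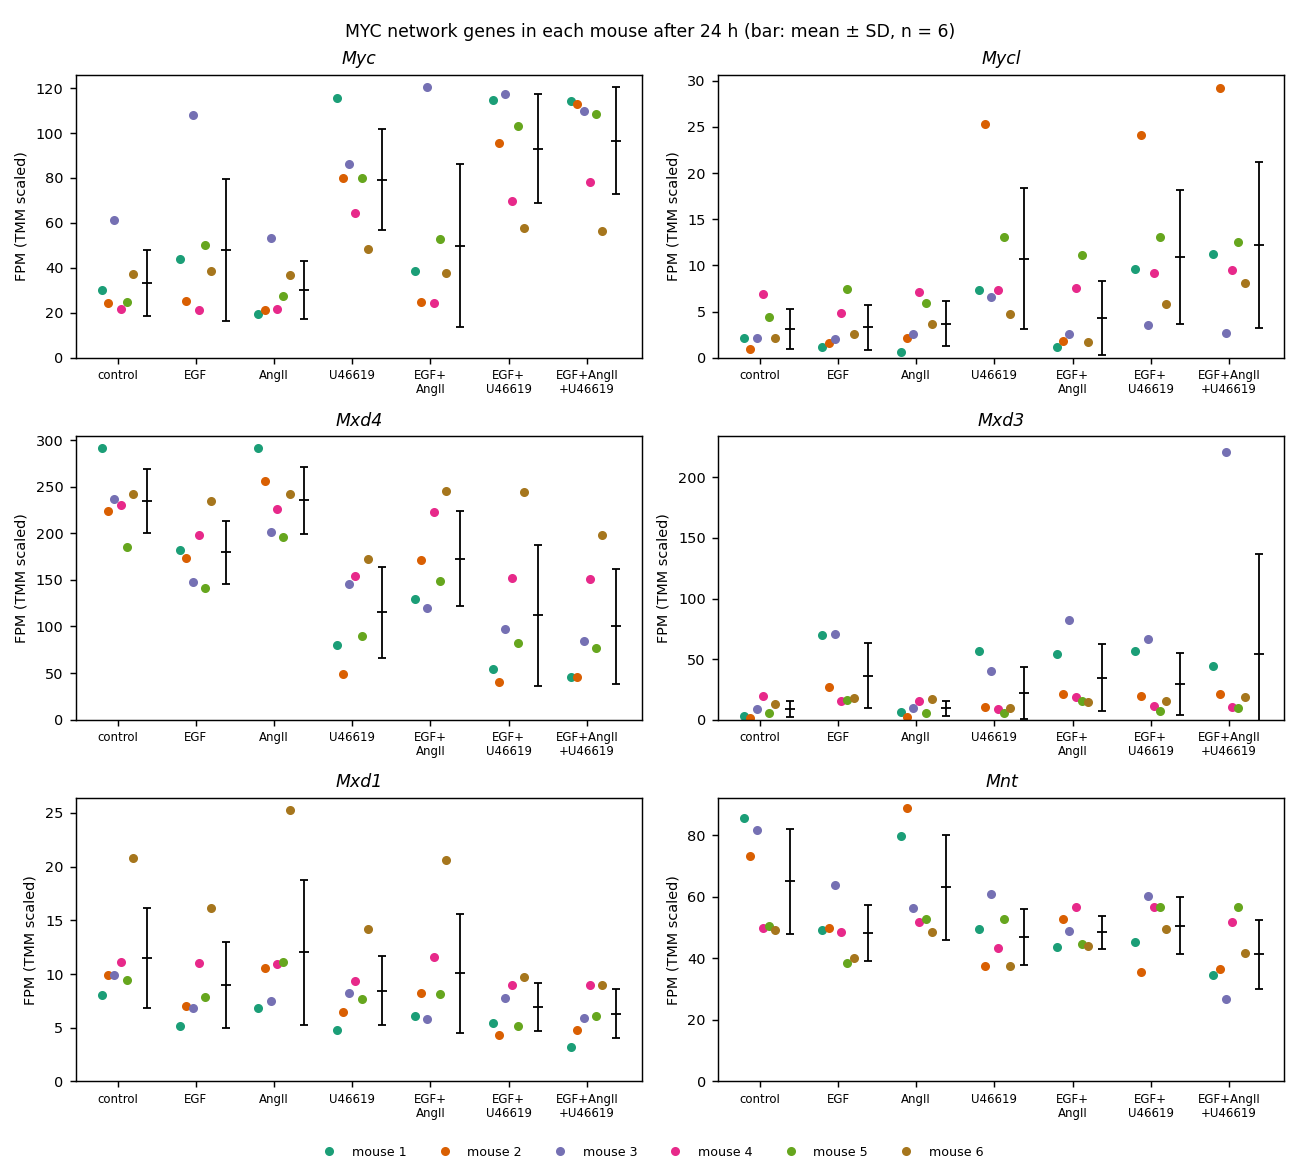
FPM of Myc, Mycl, Mxd4, Mxd3, Mxd1 and Mnt in the 42 libraries at 24 h, with a colour for each mouse and a black bar for the mean ± SD of each group (n = 6), cut at 0 where the SD exceeds the mean. The U46619 groups stand higher for Myc (mean 79.1 against 33.3 FPM in controls) and lower for Mxd4 (115 against 235 FPM), and Mxd3 is dominated by mouse 3 in the triple incubation (221 FPM).

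To summarise the balance between listed members of the arms, the summed level per kb of the 5 repressors (Mxd1, Mxd3, Mxd4, Mxi1 and Mnt) was divided by that of Myc and Mycl in each library, as a description without a test. Mycn, a further MYC gene outside the list, was left out, so the ratio does not cover the whole MYC arm. In 24 h controls Mycn was at 0 to 32.1 FPM, highest in mouse 6, and Myc at 21.8 to 61.4 FPM. In 24 h controls the repressors together exceeded Myc and Mycl by 4.21 ± 1.15 (ratio, SD, n = 6). With U46619 this ratio was 1.24 ± 0.505 and lower in 6 of 6 mice, with EGF+U46619 1.19 ± 0.614 and lower in 6 of 6, and with EGF+AngII+U46619 1.31 ± 0.884 and lower in 5 of 6. The ratio was 3.37 ± 1.43 with EGF, lower in 6 of 6 mice although no member passed the test in that comparison, and 4.82 ± 2.09 with AngII.

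EGF alone called none of the members at 24 h, where 0.0275% of all genes were called. This share depended on the tool and on single mice, since the 4 genes behind it became 397 with DESeq2 alone, 265 with edgeR's likelihood ratio test and 338 without mouse 6, and 0 without mouse 1, 2 or 5. With p unadjusted, 5 members had values under 0.05 in edgeR and in DESeq2, beside 2535 of all 14528 genes. DESeq2 alone called 1 member, Mxd3, where edgeR called 0. Myc had 21.3, 41.3 and 108 FPM with EGF, against 21.8, 27.4 and 61.4 FPM in controls, a log2-fold change of 0.43 ± 0.24 (edgeR FDR = 0.34) with a 95% interval of -0.04 to 0.89. Mice 1, 3 and 5 moved up, mouse 3 from 61.4 to 108 FPM, while mouse 2 was at 24.5 and 25.4 FPM, mouse 4 at 21.8 and 21.3 FPM and mouse 6 at 37.1 and 38.6 FPM in control and EGF. Mxd3 had the largest difference among the members, with 1.54, 7.10 and 19.2 FPM in controls and 15.04, 22.4 and 70.6 FPM with EGF. Mouse 4 alone was lower with EGF, and the log2-fold change was 1.70 ± 0.55 (edgeR FDR = 0.115, DESeq2 FDR = 0.0491). Max, Mxd1, Mxd4 and Mnt were lower in 6 of 6 mice, Mxd4 for example at 180 ± 34.1 against 235 ± 34.3 FPM, but none passed.

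AngII alone called none of the members, as of all genes (0%). At an unadjusted p under 0.05 in edgeR and DESeq2 there were 0 members, beside 63 of 14528 genes. Myc had a log2-fold change of -0.13 with a 95% interval of -0.59 to 0.34, and Mxd4 of 0.01 (-0.48 to 0.51). Changes within these intervals remain compatible with the data. With EGF+AngII, where 3.13% of all genes were called, again no member passed. An unadjusted p under 0.05 in edgeR and DESeq2 was found for 4 members, beside 3554 of 14528 genes. DESeq2 alone called 2 members, beside 1265 of all genes, among them Mxd3 with a log2-fold change of 1.58 (edgeR FDR = 0.0776, DESeq2 FDR = 0.0384). The 455 genes behind the 3.13% fell to 0 without mouse 1, 2, 3 or 5 and in a fit of the 2 groups alone. They rose to 1115 without mouse 6, and Mxd3 was called without mouse 4 or 6. Set against EGF directly, EGF+AngII called none of the members and 0% of all genes. The difference was 0.04 for Myc (95% interval -0.42 to 0.50), with 0 members at an unadjusted p under 0.05, beside 65 of 14528 genes.

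The combination of EGF and U46619 called 5 members at 24 h, against 33.4% of all genes. Myc had 57.6, 99.4 and 118 FPM and was higher in 6 of 6 mice, with a log2-fold change of 1.54 (edgeR FDR = 1.29e-05), and Mycl rose by 1.77 on the log2 scale (edgeR FDR = 0.00344). Mxd4 fell, with a log2-fold change of -1.28 (edgeR FDR = 0.000235), but mouse 6 was at 244 FPM against 242 FPM in its control while mice 1 and 2 were at 54.3 and 40.6 FPM. Mxd1 (log2-fold change -0.70, edgeR FDR = 0.000497) and Max (-0.28, edgeR FDR = 0.035) also fell. Mnt was not called here (log2-fold change -0.35, edgeR FDR = 0.121). Max lost its call without mouse 1, 2, 3 or 6, whereas Mxd3 was called without mouse 4 or 6, with DESeq2 alone and with the likelihood ratio test, and Mxi1 without mouse 3 or 5, so that the count lay between 4 and 6.

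EGF+AngII+U46619 called 8 of 10 members, against 34.6% of all genes, and the median absolute log2-fold change was 0.746 over the members and 0.442 over all genes. Myc had 56.4, 109 and 114 FPM (log2-fold change 1.62, edgeR FDR = 4.9e-06) and Mycl 2.71, 10.3 and 29.2 FPM (1.95, edgeR FDR = 0.00141). In mice 1 to 5 Myc was at 78.2 to 114 FPM and in mouse 6 at 56.4 FPM. The repressors Mxd4 (log2-fold change -1.42), Mxd1 (-0.87), Mnt (-0.63) and Mxi1 (-0.55) fell together with Max (-0.27), whereas the repressor Mxd3 rose by 1.79 ± 0.56 on the log2 scale (edgeR FDR = 0.0106). Its value of 221 FPM in mouse 3 stood far above the next, 44.0 FPM in mouse 1, and Mxd3 was no longer called without mouse 2 or 3. The remaining losses were Max, Mxi1 and Mnt without mouse 1, Max and Mxi1 without mouse 2 or 6, Max without mouse 3 and Mxi1 without mouse 4, and the count then lay between 5 and 7.

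**Figure D3:**
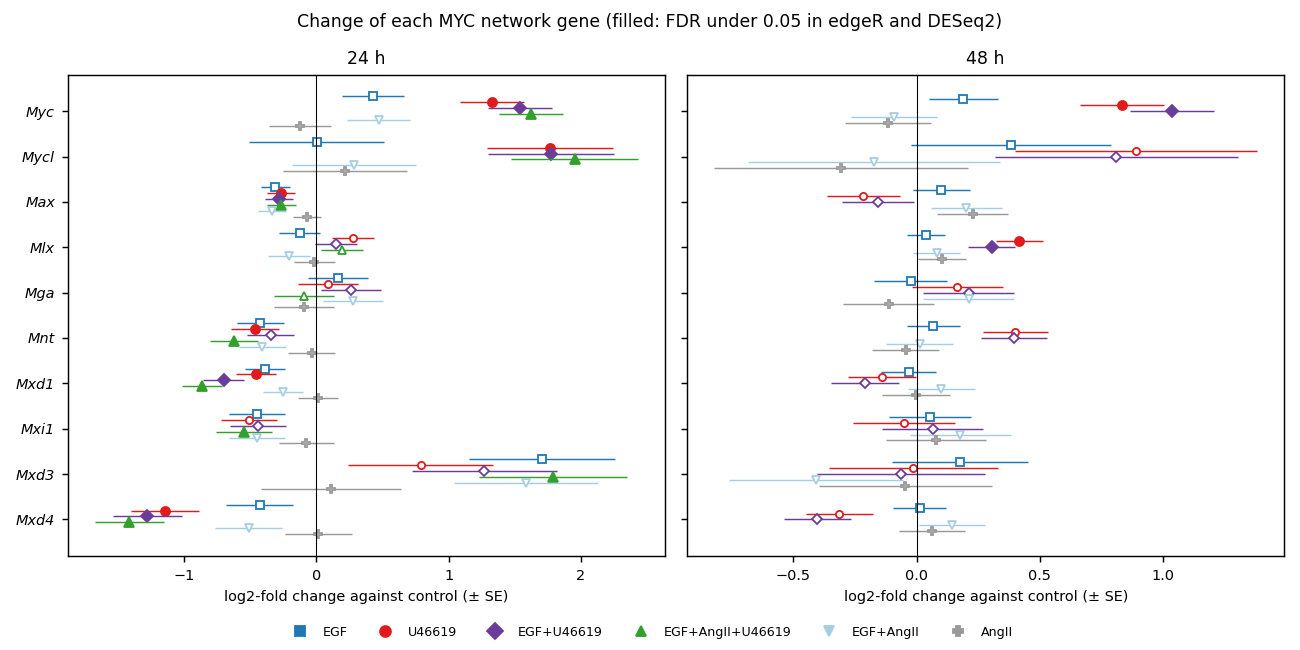
Log2-fold change of each member against control, with bars of ± SE, for the incubations at 24 h and 48 h on axes of different range, where filled points were called. At 24 h the U46619-containing incubations share filled points for Myc and Mycl above 0 (1.33 to 1.95) and for Mxd1, Mxd4 and Max below 0 (-1.42 to -0.27).

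Direct comparisons asked whether each agent added to the other. Against EGF, adding U46619 raised Myc by 1.11 (edgeR FDR = 0.00178) and Mycl by 1.77 (edgeR FDR = 0.00958) and lowered Mxd4 (-0.85, edgeR FDR = 0.0206), 3 members in all beside 13.3% of all genes. U46619 set against EGF called Myc (0.90, edgeR FDR = 0.0106) and Mycl (1.76, edgeR FDR = 0.0116), beside 11.3% of all genes, and Mxd4 missed the threshold in edgeR alone (-0.72, edgeR FDR = 0.0549, DESeq2 FDR = 0.0309). Both counts were sensitive to single mice: U46619 against EGF called 0 without mouse 1 or 2, 1 without mouse 4 and 4 without mouse 3, and EGF+U46619 against EGF called 1, Myc, without mouse 1 and lost Mxd4 without mouse 2 or 5.

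Adding EGF to U46619 called none of the members and 0% of all genes. At an unadjusted p under 0.05, 0 members passed, beside 360 of 14528 genes. The difference was 0.21 for Myc (95% interval -0.25 to 0.67) and -0.13 for Mxd4 (-0.63 to 0.37). The departure of the combination from the sum of both single effects was called for none (0% of all genes), and at an unadjusted p under 0.05 only Mnt differed, by 0.54 (95% interval 0.05 to 1.04, edgeR FDR = 1). Of all 14528 genes, 436 met that unadjusted threshold in edgeR and DESeq2. Adding AngII to EGF+U46619 called none of the members and 0% of all genes, with a difference of 0.08 for Myc (95% interval -0.38 to 0.54). At an unadjusted p under 0.05 there were 0 members, beside 759 of 14528 genes.

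After 48 h with U46619, 2 members were called, Myc and Mlx, both higher, beside 4.03% of all genes. In the EGF/U46619 batch, Myc was at 24.3, 37.9, 21.1, 39.1 and 55.0 FPM in the controls of sets 1 to 5 and at 41.3, 58.6, 54.0, 59.7 and 75.8 FPM with U46619. It was higher in 5 of 5 sets, although the groups overlapped, with a log2-fold change of 0.84 ± 0.17 (edgeR FDR = 0.00434) in the fit of both batches, 0.76 within the batch (edgeR FDR = 0.0113) and 0.78 without the control library that stood apart (edgeR FDR = 0.00637). Mlx (chr11:101087277-101092207, plus strand) was at 22.1, 24.3, 23.3, 25.1 and 22.8 FPM in these controls and at 33.6, 31.99, 30.4, 32.4 and 29.5 FPM with U46619. Within the batch these groups did not overlap, while the highest control of the EGF/AngII batch, in set 6, had 33.4 FPM. The log2-fold change of Mlx was 0.42 ± 0.10 (edgeR FDR = 0.0103), 0.43 within the batch (edgeR FDR = 0.00279) and 0.39 without the library that stood apart (edgeR FDR = 0.0173), and its call was lost when set 1 of the EGF/U46619 batch was left out.

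Of the exonic bases of Mlx, 385 (19.3%) also belong to Psmc3ip on the other strand, and the use of strand in counting is not given in the sources used here. Psmc3ip had a log2-fold change of 0.16 with U46619 at 48 h (edgeR FDR = 0.772) and of 1.25 at 24 h (edgeR FDR = 0.00579), when Mlx was not called. Mxd4 shares 514 exonic bases (6.06%) with Gm42846, which had no count in any library, Mxi1 194 (2.84%) with Gm10197, which had at most 1 count, and Mxd3 105 (4.43%) with Prelid1. Prelid1 was called higher with EGF+AngII+U46619 at 24 h (log2-fold change 0.52, edgeR FDR = 0.00322), the comparison in which Mxd3 was called, and had 1091 FPM in mouse 3, where the next highest had 416 FPM and where Mxd3 had 221 FPM. The part of shared reads in these values was not tested.

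The other members did not pass at 48 h. Mnt was higher in 5 of 5 sets, at 42.4, 49.5, 45.5, 35.4 and 58.1 FPM in controls and 58.9, 62.9, 52.4, 54.6 and 63.2 FPM with U46619 (log2-fold change 0.40, edgeR FDR = 0.0741). Mxd4 was lower in 5 of 5 sets, at 185.6, 179.4, 172.4, 130.01 and 146.4 FPM in controls and 159.04, 133.1, 131.6, 110.8 and 138.8 FPM with U46619 (log2-fold change -0.31, edgeR FDR = 0.171). With the culture set instead of the mouse label as the block, Mxd4 was called, with U46619 (-0.29, edgeR FDR = 0.0465) and with EGF+U46619 (-0.39, edgeR FDR = 0.00607), and the genes called in all rose from 585 to 1546 and from 995 to 2170. Without the library that stood apart the values of Mnt and Mxd4 with U46619 were 0.38 (edgeR FDR = 0.112) and -0.32 (edgeR FDR = 0.189). Mycl had a log2-fold change of 0.89 (edgeR FDR = 0.284).

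With EGF+U46619 at 48 h the same pair, Myc and Mlx, was called, beside 6.85% of all genes. Myc was at 42.4, 72.8, 64.3, 63.2 and 93.2 FPM in sets 1 to 5, higher than control in each, with a log2-fold change of 1.04 ± 0.17 (edgeR FDR = 0.000311), 0.96 within the batch and 0.98 without the library that stood apart. Mlx was at 28.8, 28.5, 33.2, 31.7 and 23.8 FPM (log2-fold change 0.30 ± 0.10, edgeR FDR = 0.0454), and its call was lost without that library (edgeR FDR = 0.0714), and also without set 1, 2, 3 or 4 of the EGF/U46619 batch or set 1 of the EGF/AngII batch. Without set 5 of the EGF/AngII batch 4 members were called. Within the EGF/U46619 batch Mlx was called (0.31, edgeR FDR = 0.0117) and Mnt was called too (0.35, edgeR FDR = 0.0451).

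**Figure D4:**
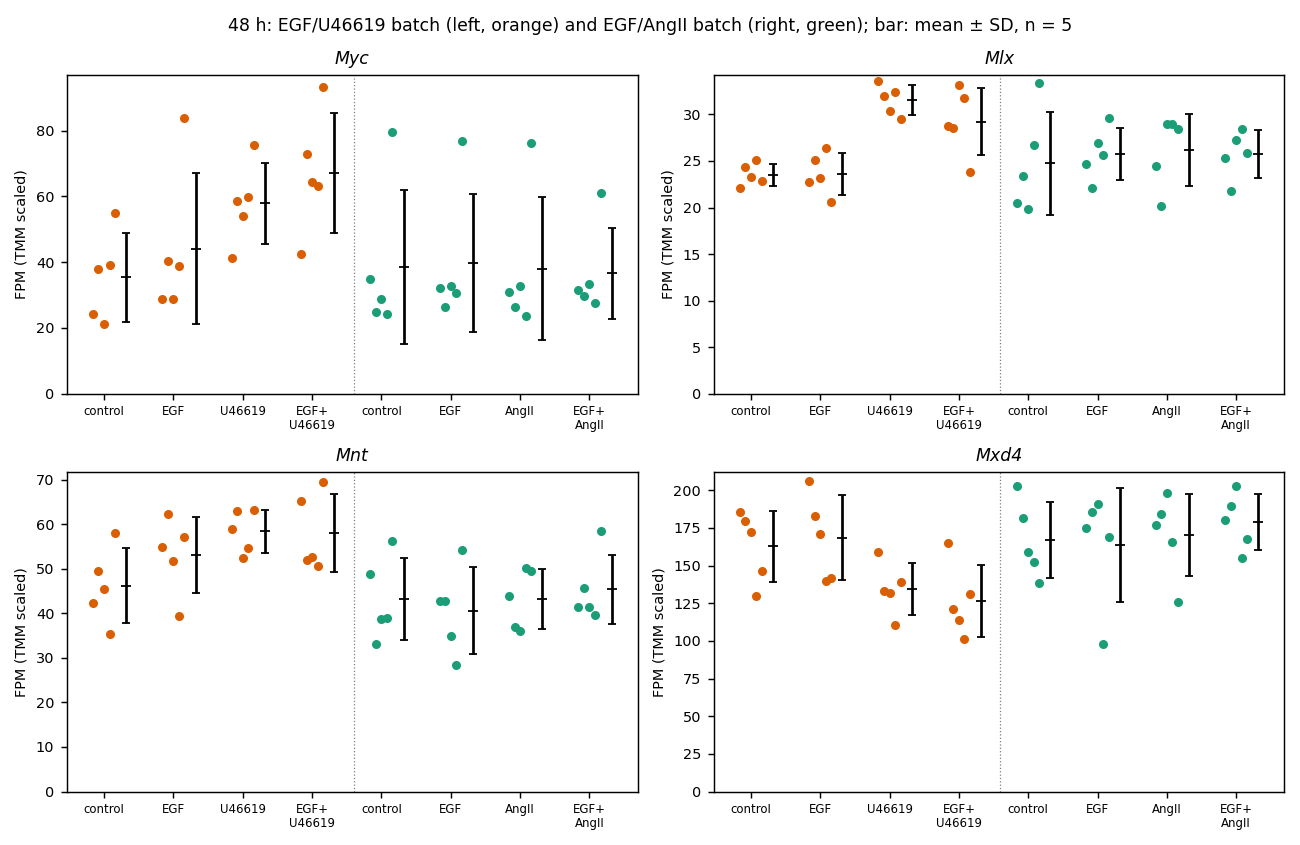
FPM of Myc, Mlx, Mnt and Mxd4 in the 40 libraries at 48 h, with the EGF/U46619 batch on the left, the EGF/AngII batch on the right and a black bar for the mean ± SD of each group (n = 5). Myc had a mean of 57.9 FPM with U46619 and 67.2 FPM with EGF+U46619 against 37.0 FPM over the controls of both batches, and the U46619 libraries of Mlx lie between 29.5 and 33.6 FPM.

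EGF alone, AngII alone and EGF+AngII called none of the members at 48 h, and 0% of all genes each. At an unadjusted p under 0.05 in edgeR and DESeq2 each had 0 members, beside 123, 219 and 265 of 14528 genes in that order. Myc had a log2-fold change of 0.19 with EGF (95% interval -0.08 to 0.47, n = 10) and of -0.11 with AngII (-0.46 to 0.23, n = 5). EGF+U46619 against EGF called Myc (0.85, edgeR FDR = 0.00331), beside 4.81% of all genes, and U46619 against EGF called Myc (0.65, edgeR FDR = 0.0276) and Mlx (0.38, edgeR FDR = 0.0206), beside 3.21% of all genes. The latter count fell to 0 without set 2, 3 or 4 of the EGF/U46619 batch, lost Mlx without set 1 of that batch and lost Myc without set 2, 5 or 6 of the EGF/AngII batch. EGF+U46619 against U46619, EGF+AngII against EGF and the departure from additivity called none, each beside 0% of all genes. Each had 0 members at an unadjusted p under 0.05, beside 45, 509 and 31 of 14528 genes in that order. Without the library that stood apart, the members called in these 8 comparisons were unchanged, and Myc had log2-fold changes of 0.13 with EGF and -0.17 with AngII.

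Both time points were run as separate experiments, and effects were compared over the paired differences of single cultures by exact 2-sided permutation tests with 462 arrangements, 20 tests in all, so time and experiment cannot be told apart. The clearest difference was that of Mnt with U46619, with a mean log2 difference of -0.45 at 24 h (n = 6) and 0.35 at 48 h (n = 5), a gap of -0.80 (exact p = 0.00433, the smallest p that this design allows, Benjamini-Hochberg adjusted p = 0.0866). Mxd4 moved by -1.14 at 24 h and by -0.27 at 48 h (exact p = 0.013, adjusted p = 0.115). Myc moved by 1.28 and 0.75 (exact p = 0.149). None of the 20 passed after adjustment.

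Genes that MYC is known to activate were read as a list of 34, of which 33 could be tested. The list was drawn from general knowledge, but with earlier results of these data known, so its counts are a description. At 24 h with U46619, 28 of 33 rose and none fell, with called log2-fold changes of 0.37 to 2.08 and a median over the 33 of 0.78, beside a median of -0.06 over all genes, of which 1984 rose and 2060 fell. Those that rose most were Tfrc, the transferrin receptor (2.08), Mthfd2 of mitochondrial folate metabolism (1.48) and Ldha, lactate dehydrogenase (1.45). The 5 not called, named after their values were seen, were Ccnd2 (-0.05), Cdk4 (0.16), Ptma (0.26), Slc19a1 (0.39) and Tert (-0.71). With EGF+U46619 30 rose (median 0.94) and with EGF+AngII+U46619 31 rose (median 0.99), again with none lower. EGF called none of them (median 0.24), EGF+AngII 2 and AngII none. Above 0 were 32 of 33 with EGF, 32 with EGF+AngII and 14 with AngII, beside 31 with U46619. Of all genes, 27.8% were called with U46619, 33.4% with EGF+U46619 and 34.6% with EGF+AngII+U46619. The share was 0.0275% with EGF, 3.13% with EGF+AngII and 0% with AngII.

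At 48 h U46619 called none of these 33 targets, although 31 had a log2-fold change above 0 (median 0.23), and EGF+U46619 called 10, all higher (median 0.38). Without the library that stood apart U46619 again called none (median 0.23) and EGF+U46619 called 4 (median 0.36). Of 8 genes that MYC is known to repress, 5 fell with U46619 at 24 h, with a median of -0.84 over the 8: Ndrg2 (-1.97), the differentiation factor Cebpa (-1.44), the growth arrest gene Gas1 (-1.35) and the cell cycle inhibitors Cdkn2b (-0.90) and Cdkn1b (-0.78). With EGF+U46619 6 fell, Ndrg1 (-0.97) in addition, and with EGF+AngII+U46619 also 6. EGF called none, and 1 of 8 was above 0 with EGF, as with U46619. At 48 h U46619 called none of them and EGF+U46619 called Ndrg1 (-0.97), to which Gadd45a, higher, was added without the library that stood apart. A list of 12 proliferation genes had 7 higher with U46619 (median 1.36) and 12 with EGF+U46619 (median 1.87) at 24 h. None of them were called with EGF at 24 h (median 1.45) or at 48 h. Beside these lists, 27.8% of all genes were called with U46619, 33.4% with EGF+U46619 and 34.6% with EGF+AngII+U46619 at 24 h. At 48 h the share was 4.03% with U46619 and 6.85% with EGF+U46619. The part of cell division in the values of the MYC targets was not tested.

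**Figure D5:**
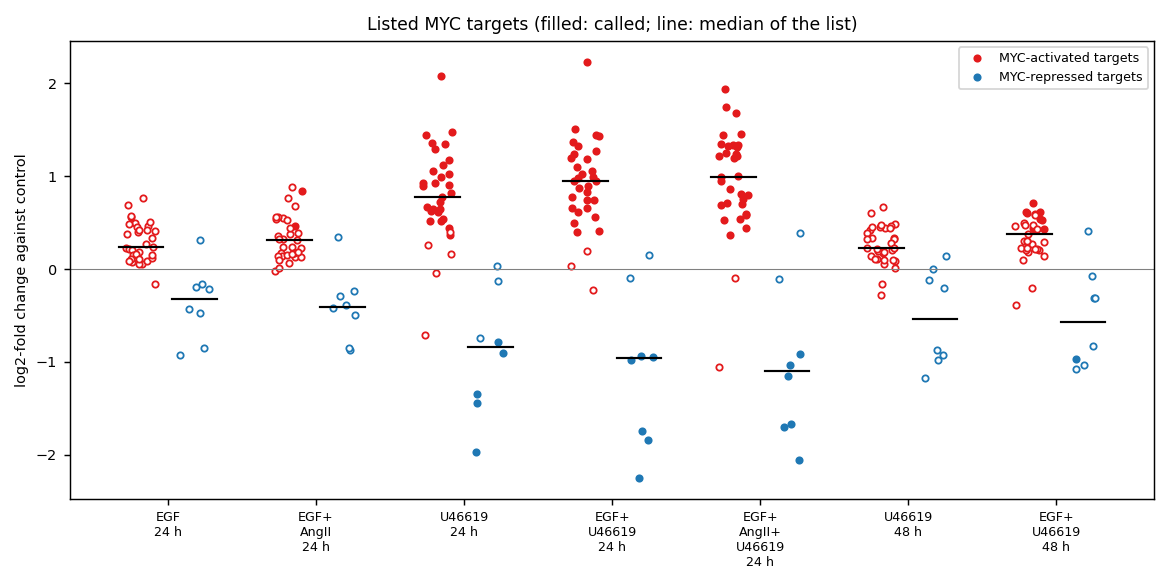
Log2-fold changes against control of the MYC-activated and MYC-repressed genes, with a point a gene, filled where called, a line for the median of each list, and the points spread sideways for visibility alone. Most activated genes lie above 0 with U46619 at 24 h (median 0.78, 28 of 33 called, beside 27.8% of all genes). They lie nearer to it at 48 h (median 0.23, none called), and most repressed genes lie below 0 (median -0.84 at 24 h).

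Of known targets of MLX with MondoA 2 genes were listed. Txnip, an inhibitor of glucose uptake, had a log2-fold change of -1.62 and Arrdc4, its relative, of -0.61 with U46619 at 24 h, both called lower beside 27.8% of all genes, and at 48 h 1 of the 2 was called, Txnip with -0.89. Txnip was also called lower with EGF+U46619 at 48 h (-0.92). Among 18 other network proteins and MYC cofactors, U46619 at 24 h called Ruvbl2 (0.81) and Wdr5 (0.34), chromatin cofactors of MYC, as higher and the E-box factor Usf1 (-0.83) as lower, 3 of 18. Of 11 tested components of the SIN3 corepressor, through which MXD proteins act, Sap30 alone was called (0.99). In the MGA complex the partners E2f6 (0.78), Tfdp1 (0.66) and Wdr5 rose and Rybp fell (-0.82), 4 of 11. Of 12 genes for MYC protein turnover, the ubiquitin ligase subunit Skp2 (1.01), the deubiquitinase Usp36 (0.41) and the phosphatase subunit Ppp2ca (0.24) rose, and Btrc fell (-0.49), 4 of 12. The shares of 36.4% and 33.3% in these last lists lie near the 27.8% of all genes, and those of the cofactor and SIN3 lists below it. At 48 h with U46619, 0 of 18, 0 of 11, 1 of 11 (Rybp, -0.65) and 1 of 12 (Fbxw7, the ligase subunit that targets MYC, -0.35) of these 4 lists were called, beside 4.03% of all genes. The same counts were found without the library that stood apart.

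Within the network, levels were related over the 42 libraries at 24 h after each mouse's mean was taken out, on log2 FPM. These correlations are descriptions, since the libraries share treatments. Myc went against Mxd4 (r = -0.893) and Mxd1 (r = -0.735) and with Mycl (r = 0.806), and at 48 h over 40 libraries the same values were -0.714, -0.340 and 0.394, and without the library that stood apart -0.757, -0.331 and 0.396. Max and Mxd3 went opposite ways at 24 h (r = -0.827) and not at 48 h (r = -0.064, and 0.158 without that library). Of the variance of Myc at 24 h, 60.0% lay between treatments and 22.5% between mice, for Mxd4 52.0% and 22.9%, whereas Mxd1 (25.7% and 62.5%) and Mga (7.43% and 56.2%) varied mainly between mice. In the EGF/AngII batch at 48 h, 0.417% of the variance of Myc lay between treatments and 95.8% between culture sets, and without that library 0.331% and 96.2%.

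Among 10162 genes, those whose 24 h profile was most like that of Myc over the same 42 libraries were Rrp12 (r = 0.976), Stip1 (0.973), Nop2 (0.972), Pgam1 (0.971) and Nolc1 (0.971), and for Rrp12 the value at 48 h was 0.760 (0.766 without that library). Among those most like Mycl were Siglecg (r = 0.947), Maff (0.933) and Ccn2 (0.932), with 0.3002 for Siglecg and -0.153 for Ccn2 at 48 h.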

How the data were processed

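RNA of aVSMC was measured by poly(A)-enriched paired-end sequencing in 82 libraries (42 at 24 h, 40 at 48 h). The deposited values are raw read counts per gene, which the authors made with HISAT2 2.1.0 on mm10 and featureCounts, multi-mapping reads included. No other normalisation was applied by them to these files. Counts were scaled by TMM and fitted in 1 model per time point with edgeR 4.0.16 (quasi-likelihood) and DESeq2 1.42.0 in R 4.3.3, with treatment and the mouse label as terms. The paired term has its basis in the labels at 24 h, where same-numbered libraries come from the same mouse, and their deviations correlated in 126 of 126 pairs (minimum 0.395, median 0.776). At 48 h the pairs were libraries of the same culture set, and 57 of 60 had a correlation over 0.1 (minimum -0.284, median 0.809). These correlations describe the culture sets, whereas the term in the main fit was the mouse label. At 48 h 5 culture sets from both batches carry the label of 1 mouse, so that the mouse term joins them. The culture set as block is the alternative given beside Mxd4. filterByExpr kept 14653 genes at 24 h and 15796 at 48 h, 14528 at both. A DEG had an FDR (Benjamini-Hochberg over all genes kept) under 0.05 in both tools and at least 5 FPM. The lowest count of a member in any library was that of Mycl, whose levels also varied widely between cultures (SD 71.4% of the mean with U46619 at 24 h). Positions and exon lengths came from GENCODE on GRCm38 and promoters from RefSeq GRCm38.p6. Pair differences used log2(FPM + 0.5). Members and gene lists were chosen with earlier results of these data known. All 10 members are named, and of each other list the 3 genes with the largest changes among those called, while further genes of counts of 5 or fewer were named after their values were seen. Likeness names the 5 genes of highest correlation with Myc and with Mycl, of which some for Mycl are not reported here. Alternatives were edgeR or DESeq2 alone, a likelihood ratio test in edgeR, no filter or FPM minimum, DESeq2 size factors, no block or the culture set as block, the 2 compared groups alone, single batches and left-out libraries. The fits were checked on simulated data. Figures were drawn with matplotlib 3.10.9.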

Additional observations from a re-analysis of the deposited data

Results flagged for a closer look

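In 17 of 130 groups of a member's FPM the highest or lowest library stood apart from the rest by Dixon's criterion at the 95% level, which chance alone gives in about 1 in 20 groups. Several belonged to the same cultures. In mouse 3 at 24 h, Myc was at 108 FPM with EGF (next 50.2) and 121 FPM with EGF+AngII (next 52.9), Mlx was at 36.4 FPM with EGF and Mxd3 at 221 FPM with EGF+AngII+U46619 (next 44.0). In the summed epithelial markers this mouse had 4.5 FPM in control, 59.4 FPM with EGF and 95.2 FPM with EGF+AngII+U46619. This sum was almost all Krt8, as Epcam had at most 0.251 FPM in any library and Cdh1 was listed at 0. The part of Krt8-expressing cells was not tested. In culture set 6 of the EGF/AngII batch at 48 h, Myc was at 76.3 FPM with AngII and 61.1 FPM with EGF+AngII, Mga at 76.6 FPM with EGF+AngII and Mlx at 33.4 FPM in control, the highest of 10.

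Mycl was at 29.2 FPM in mouse 2 with EGF+AngII+U46619 (next 12.5) and at 15.7 FPM in set 5 of the EGF/U46619 batch with EGF+U46619. Mxd1 was at 20.8 FPM in the control and 25.3 FPM in the AngII library of mouse 6, and low, at 6.93 FPM, in set 4 of the EGF/U46619 batch with U46619. Max was at 93.2 FPM in mouse 5 with U46619. Mxi1 was low, at 20.8 FPM, in the control of mouse 5, and at 17.3 FPM in set 5 of the EGF/AngII batch with EGF+AngII. Mga was at 56.8 FPM in set 5 of the EGF/U46619 batch with U46619 at 48 h.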

How the results depend on the processing

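No direction reversed under any alternative. Of the fold changes followed, 437 values under alternatives kept their side of the threshold, 64 lost it and 17 passed it anew. Without the replicate block (the paired term), the count of members called dropped from 6 to 1 for U46619 at 24 h, 5 to 3 for EGF+U46619, 8 to 5 for EGF+AngII+U46619, 3 to 0 for EGF+U46619 against EGF and 2 to 0 for U46619 against EGF. At 48 h it dropped from 2 to 0 for U46619, 2 to 0 for EGF+U46619, 1 to 0 for EGF+U46619 against EGF and 2 to 0 for U46619 against EGF. With DESeq2 alone the count was 1 (main 0) for EGF and 2 (main 0) for EGF+AngII at 24 h, and 4 (main 2) for EGF+U46619 and 3 (main 1) for EGF+U46619 against EGF at 48 h. With no filter U46619 at 24 h called 3 and EGF+U46619 at 48 h 1. The likelihood ratio test called 1 for EGF+AngII at 24 h and 1 for EGF+U46619 at 48 h. Fits of the 2 compared groups alone called 3 for EGF+AngII+U46619 at 24 h and 1 for EGF+U46619 at 48 h, which without the control library that stood apart, an alternative chosen after seeing the data, also had 1. Leaving out each replicate gave 3 to 7 for U46619, 0 to 1 for EGF+AngII, 5 to 8 for EGF+AngII+U46619, 1 to 4 for EGF+U46619 against EGF and 0 to 4 for U46619 against EGF at 24 h, and 1 to 2, 1 to 4, 1 to 2 and 0 to 2 for U46619, EGF+U46619, EGF+U46619 against EGF and U46619 against EGF at 48 h. The cause of these changes was not tested. Myc at 24 h was called under all 14 alternatives with U46619 (1.19 to 1.56), EGF+U46619 (1.45 to 1.76) and EGF+AngII+U46619 (1.48 to 1.86), and at 48 h with U46619 under 20 of 21 (0.65 to 0.90). Mxd4 with U46619 at 24 h lost its call under 1 of 14, Mxd1 under 5, Mnt under 6 and Max under 8. The lowest count of a member in any library was that of Mycl (11 to 515 counts per library at 24 h).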

Other observations

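Mycn, the third MYC gene and no member of the list above, was named after its values were seen. Its counts differed widely between cultures. At 24 h they ranged over the 7 libraries of a mouse from 0 to 1 in mouse 1, 0 to 19 in mouse 2, 13 to 96 in mouse 3, 103 to 201 in mouse 4, at most 191 in mouse 5 and 241 to 685 in mouse 6. In the same order of mice, the summed endothelial markers of the controls were at 4.37, 4.57, 58.9, 584, 342 and 1530 FPM. In culture set 4 of the EGF/AngII batch at 48 h, Mycn ranged from 54 to 2633 counts, and this set holds the control library that stood apart.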
